A study of Mus musculus with 2 samples.

Results

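The genes described here make cholesterol, sense it and move it: 29 genes were listed by name, covering the enzymes that build the sterol from acetyl-CoA, the proteins that switch those enzymes on when sterol runs low, and carriers that export or store it. A gene was measured when a probe set of the array was annotated with that symbol and no other, and its brightest probe set, by mean log2 signal over both arrays, stood for it. By this rule 27 of the 29 genes had a probe set, among 18193 genes on the array. The signals of Acat2 and Soat1 were not analysed here, and these genes enter only the promoter counts. Of the 27, 26 genes reached the floor on low signals described next, among 11671 genes of the array that did. Mvk, mevalonate kinase, did not: its probe sets read 56.8 and 55.6 on the array labelled knockout, against 70.9 and 24.8 on the wild-type array.

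The study compared the ventral prostate, the secretory lobe of the mouse gland that depends on androgen, between a sample of genotype U19/Eaf2 -/- and a sample of genotype U19/Eaf2 +/+. Both came from male mice of the C57BL/6J background aged 3 months, and each was read on 1 array, so neither group had a replicate. U19/Eaf2 is an androgen-induced partner of the ELL transcription elongation factors. The sources used here give neither the deleted part of the gene nor the number of animals behind each sample. Values are probe-set signals, the brightness of a set of short probes for a transcript on a linear scale. The floor was a signal of 166, the 50th percentile over both arrays, below which signals were raised to it. A ratio is the log2 of knockout-labelled over wild-type signal, and a gene was counted as higher or lower when it differed at least 1.5-fold, which is 0.58 on the log2 scale. With 1 array a group no test was possible and no error between animals can be given. The data do hold the spread among different probe sets for a gene, with an SD of 0.354 (log2) per probe set over 4497 genes, which leaves out animals, dissection and hybridisation.

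The labels name ventral prostates, and products of the secretory epithelium were read on both arrays. Spink1, a secreted protease inhibitor, read 64718 on the array labelled knockout and 62610 on the wild-type array. Above the floor on at least 1 array were 9 of 9 annotated luminal markers and 0 of 6 seminal vesicle markers, against 11671 of all 18193 genes with a probe set. The only annotated probe set of Eaf2 read 702 on the array labelled knockout, against 691 on the wild-type array. Whether this probe set lies in the deleted part is not known from the sources used here. The knockout was therefore not verified from these data, and the sample is called by its label. The ratio of the 3' to the 5' control probe set of Actb was 1.65 on the array labelled knockout and 1.247 on the wild-type array, and that of Gapdh was 0.847 on the array labelled knockout and 0.714 on the wild-type array. Whether this had a part in any ratio below was not tested.

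Cholesterol synthesis runs from acetyl-CoA through mevalonate to farnesyl diphosphate, and from there through squalene and lanosterol to cholesterol, while branches leave for geranylgeranyl groups, dolichol and ubiquinone. When sterol in the endoplasmic reticulum is low, Scap escorts the SREBP proteins, encoded by Srebf1 and Srebf2, to the Golgi. There they are cut, and the freed part enters the nucleus and binds sterol regulatory elements, commonly with the factor NF-Y at a neighbouring CCAAT box. When sterol is plentiful, Insig proteins hold Scap back. Prostate epithelium makes much of its own lipid, and in human prostate cancer cells androgen raises the enzymes of both fatty acid and cholesterol synthesis.

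The promoters of the listed genes were read for sites through which genes of cholesterol synthesis are known to be switched on together. The list also holds genes under other control, such as Abca1. RefSeq start sites of build GRCm38.p6 were listed for 24 of the 29 genes, and Fdps, Fdft1, Sqle, Stard4 and Npc1 had no entry. In the 250 bases before the start, on either strand, the CCAAT box (letters CCAAT, or ATTGG on the other strand) was found in 21 of 24 genes, or 87.5%, against 39.9% of the 9423 genes above the floor with a listed start and 37.5% of all 27025 genes in the table. At least 2 of these boxes stood in 1 window in 12 of the 24 genes, 50% of them, against 14.7% of the genes above the floor. The GC box (GGGCGG) was found in 21 genes, 87.5%, against 62.8% of the genes above the floor. The sterol regulatory element in the form TCACNCCAC was found in Hmgcs1 alone, 4.17% of the genes against 1.27% of those above the floor. In the looser form TCACNCCA it was found in Hmgcs1, Msmo1 and Srebf2, 12.5% of the genes against 4.11% of those above the floor. The palindromic E-box, TCACGTGA, was found in 0 of 24 genes, against 1.76% of the genes above the floor. Of the 24 genes, 21 were themselves above the floor, 19 of them with a CCAAT box and 19 with a GC box. Several starts were listed for 5 of the 24 genes, which counted when any of them had the motif. Letters that match are a description and not a measured site.

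**Figure D1:**
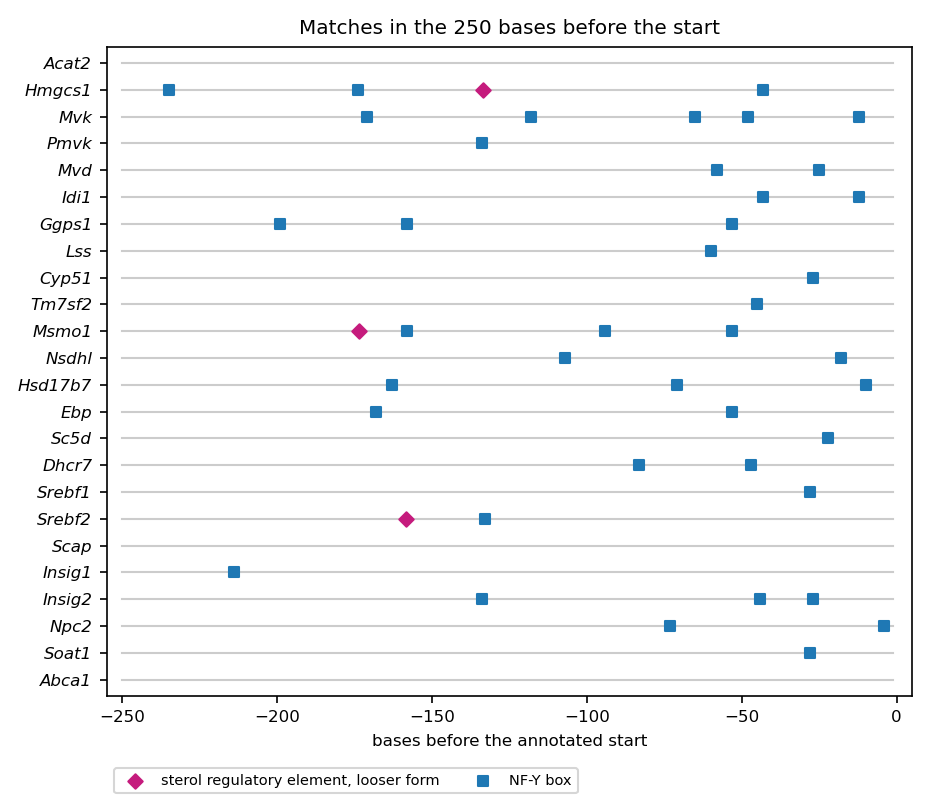
Positions of motif matches in the 250 bases before the annotated start (x axis, bases before the start) for the 24 genes with a listed start (rows). Squares mark the NF-Y box and diamonds the looser sterol regulatory element. For genes with several starts the window with most matches is drawn. Squares stand in 21 rows and diamonds in those of Hmgcs1, Msmo1 and Srebf2.

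The windows below are shown because they carry the looser sterol regulatory element beside CCAAT boxes. Capitals mark both motifs, and each run is read 5' to 3' on the strand of the gene, ending 1 base before the start. That of Hmgcs1 is chr13:119690101-119690350 on the plus strand, that of Srebf2 chr15:82147019-82147268 on the plus strand and that of Msmo1 chr8:64733579-64733828 on the minus strand.
Hmgcs1: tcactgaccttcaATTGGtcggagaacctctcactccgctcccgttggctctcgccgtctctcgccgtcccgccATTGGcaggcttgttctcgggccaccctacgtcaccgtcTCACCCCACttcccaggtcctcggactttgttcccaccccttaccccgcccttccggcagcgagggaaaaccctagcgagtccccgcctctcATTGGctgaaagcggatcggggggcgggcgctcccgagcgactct
Srebf2: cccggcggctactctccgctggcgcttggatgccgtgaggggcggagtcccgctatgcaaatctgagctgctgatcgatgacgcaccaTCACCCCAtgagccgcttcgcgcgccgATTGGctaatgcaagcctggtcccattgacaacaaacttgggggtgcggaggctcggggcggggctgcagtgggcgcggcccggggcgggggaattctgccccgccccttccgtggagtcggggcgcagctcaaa
Msmo1: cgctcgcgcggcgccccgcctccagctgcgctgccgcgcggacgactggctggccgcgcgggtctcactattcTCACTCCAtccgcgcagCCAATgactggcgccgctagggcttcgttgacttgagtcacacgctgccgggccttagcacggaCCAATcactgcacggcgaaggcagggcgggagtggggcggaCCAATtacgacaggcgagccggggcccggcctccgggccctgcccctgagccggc

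In Hmgcs1 the longer form of the element lay 137 to 129 bases before the start, between CCAAT boxes at 176 to 172 and at 45 to 41 bases. In Srebf2 the looser form lay at 162 to 155 bases with a CCAAT box at 135 to 131, and in Msmo1 at 177 to 170 bases with the nearest box at 160 to 156. Next are the windows of the 3 genes with the highest ratios among synthesis enzymes with a listed start, Cyp51 (chr5:4104698-4104947 on the minus strand), Lss (chr10:76531355-76531604 on the plus strand) and Idi1 (chr13:8885356-8885605 on the plus strand), and that of Abca1 (chr4:53159896-53160145 on the minus strand), which had neither motif. Capitals mark the CCAAT boxes.
Cyp51: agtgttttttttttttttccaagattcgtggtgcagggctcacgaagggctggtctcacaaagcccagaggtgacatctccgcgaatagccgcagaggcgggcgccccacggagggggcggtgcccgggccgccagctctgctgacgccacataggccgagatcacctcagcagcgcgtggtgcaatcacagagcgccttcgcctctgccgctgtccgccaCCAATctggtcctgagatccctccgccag
Lss: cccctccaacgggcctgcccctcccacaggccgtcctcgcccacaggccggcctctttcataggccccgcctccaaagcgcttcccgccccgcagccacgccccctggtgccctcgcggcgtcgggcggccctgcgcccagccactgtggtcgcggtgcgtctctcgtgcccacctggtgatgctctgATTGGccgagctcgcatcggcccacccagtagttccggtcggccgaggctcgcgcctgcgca
Idi1: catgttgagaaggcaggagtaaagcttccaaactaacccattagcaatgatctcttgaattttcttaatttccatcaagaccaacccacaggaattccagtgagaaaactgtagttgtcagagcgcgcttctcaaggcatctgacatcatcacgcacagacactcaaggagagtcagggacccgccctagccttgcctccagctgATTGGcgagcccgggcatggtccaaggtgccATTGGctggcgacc
Abca1: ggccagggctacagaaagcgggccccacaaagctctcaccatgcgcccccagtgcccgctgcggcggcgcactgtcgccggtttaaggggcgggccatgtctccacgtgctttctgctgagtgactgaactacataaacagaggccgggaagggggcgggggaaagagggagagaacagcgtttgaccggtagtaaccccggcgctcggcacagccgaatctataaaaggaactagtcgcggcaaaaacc

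In their brightest probe sets the sterol genes were, in the median, slightly higher on the array labelled knockout. The median log2 ratio was 0.14, against -0.03 over all 11671 genes above the floor, and 18 of 26 genes, or 69.2%, lay above 0, against 47% of all genes. The other 8 lay below 0, as did 53% of all genes. When the probe set nearest 0 stood for each gene, the median was -0.02 against -0.03 over all genes. Under that choice 12 of 26 lay above 0, against 43.9% of all genes. Few differed by much. Fdps and Cyp51 were at least 1.5-fold higher, 2 of 26 genes or 7.69%, against 4.69% of all genes, and Pmvk was at least 1.5-fold lower, 1 of 26 or 3.85%, against 6.26%. The shares past 1.5-fold were thus near those of all genes. Past a log2 ratio of 0.32 in size, an easier threshold, the higher genes were Fdps, Cyp51, Srebf2, Lss and Sqle, 19.2% of the group against 16.3% of all genes, and Pmvk was again the only lower member, 3.85% against 19%. Past 2-fold there were 0 members in either direction, against 0.591% of all genes higher and 0.883% lower. Over all genes, 547 were counted as higher and 731 as lower at 1.5-fold, a split that turned to 693 and 607 when each array was centred on its median, to 628 and 553 under quantile normalization, and to 630 and 553 after loess. The sterol genes' count turned to 3 higher and 1 lower with median centring, and to 3 higher and 0 lower under each of the others.

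**Figure D2:**
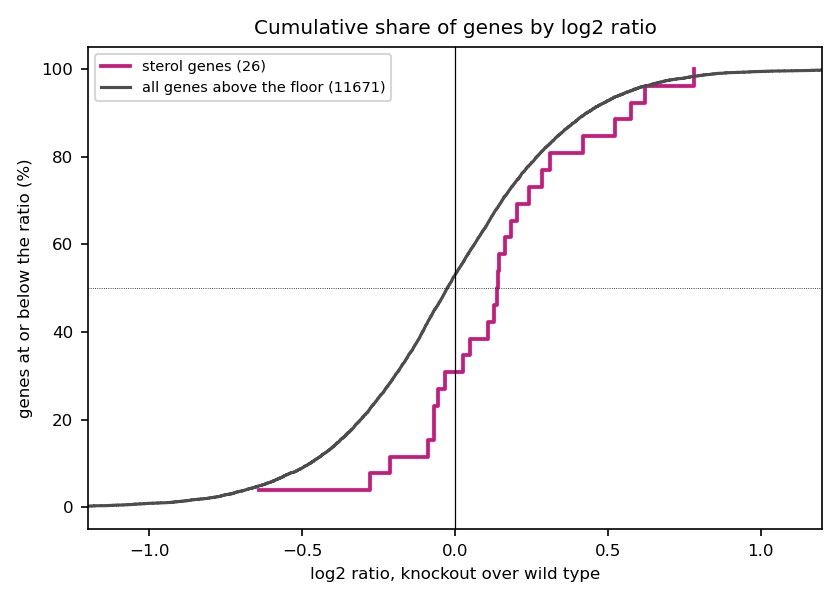
Cumulative share of genes (y axis, %) at or below each log2 ratio of the array labelled knockout over the wild-type array (x axis), for the 26 sterol genes and for all 11671 genes above the floor. The curve of the sterol genes lies to the right around the middle, with a median of 0.14 against -0.03, and meets that of all genes near the upper end.

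Other signals differed between the same arrays. For comparison, 47% of all genes above the floor lay above 0 and 53% below, with a median log2 ratio of -0.03. Of 7 adipocyte markers above the floor on at least 1 array, 4 were above 0, with a median log2 ratio of 0.53, and the signals of the 10 annotated markers summed to 4198 on the array labelled knockout, against 2362 on the wild-type array. Car3, a carbonic anhydrase abundant in fat, differed most, with 1278 on the knockout-labelled array and 234 on the wild-type one. Adipoq, which defines fat cells, read 255 on the knockout-labelled array and 13.8 on the wild-type one. The latter is below the floor, so that its log2 ratio of 0.62 was a bound. Plin4, Retn and Lipe lay below 0, at -0.31, -0.18 and -0.15, the last a bound. Lep, Pparg and Cidec were below the floor on both arrays, and 0 markers were listed at 0. Smooth muscle markers went the other way, 9 of 10 lying below 0 with summed signals of 39712 on the knockout-labelled array and 53736 on the wild-type one. Luminal markers summed to 178104 on the knockout-labelled array and 189543 on the wild-type one, with a median ratio of -0.02. Of 9 measured, 4 lay above 0 and 5 below. They ranged from Tmprss2 at 0.53, with an opposite probe set, to Tgm4 at -0.72, a bound. Pbsn and Msmb had -0.38 and -0.37, and Azgp1 0.18. Macrophage markers lay below 0 in 6 of 8, with a median of -0.26 and sums of 5199 on the knockout-labelled array and 5801 on the wild-type one. Basal epithelial markers lay below 0 in 2 of 4, with sums of 1613 on the knockout-labelled array and 2030 on the wild-type one. Whether these differences had a part in the sterol genes' higher median was not tested. In tissue of several cell types, fewer cells of a type and less RNA per cell cannot be told apart.

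The mevalonate arm, which carries carbon from acetyl-CoA to the farnesyl and geranylgeranyl diphosphates, had a median log2 ratio of 0.19 over 6 measured genes. Above 0 lay 5 of these, or 83.3%, against 47% of all genes. Fdps, which joins isoprene units into farnesyl diphosphate, the last step that sterols share with prenyl groups, stood highest. Its signal was 817 on the array labelled knockout and 475 on the wild-type array, 1.72-fold higher, a log2 ratio of 0.78 that exceeded those of 98.3% of all genes and was 2.21 times the SD of a probe set. No other probe set above the floor was there to check it, since its second read 4.79 on the knockout-labelled array and 16.5 on the wild-type one. Idi1, the isomerase that makes the reactive isoprene unit, read 1391 on the array labelled knockout and 1122 on the wild-type array, a log2 ratio of 0.31, and its other probe set read 1007 on the knockout-labelled array and 721 on the wild-type one, a ratio of 0.48. Idi1 was thus higher in both of its probe sets, though the ratio of the brighter lay within the SD of a probe set. Hmgcs1, the cytosolic synthase that opens the pathway and carries the sterol regulatory element shown above, read 1659 on the array labelled knockout and 1463 on the wild-type array, a ratio of 0.18, with its other 3 probe sets from -0.08 to 0.28. Its difference was within the SD of a probe set.

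Pmvk, phosphomevalonate kinase, was the lowest member. It read 342 on the array labelled knockout and 534 on the wild-type array in its only probe set, 1.56-fold lower, with a log2 ratio of -0.64. Only 4.87% of all genes had a lower ratio. No other probe set was there to check it. The ratio was -0.55 under quantile normalization and after loess, and -0.57 with a pseudocount of 50, just short of 1.5-fold, and -0.36 with the floor at the 70th percentile, where the lower signal is a bound. Mvd, the decarboxylase that follows it, had probe sets that disagreed. The brighter read 325 on the array labelled knockout and 296 on the wild-type array, a log2 ratio of 0.14, and the other 256 on the knockout-labelled array and 356 on the wild-type one, a ratio of -0.48. Ggps1, which makes geranylgeranyl diphosphate for prenylated proteins and so leaves the sterol route, read 1190 on the array labelled knockout and 1034 on the wild-type array, a ratio of 0.20, with its other 3 probe sets from -0.33 to 0.17. For Mvd and Ggps1 the direction depended on the probe set.

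**Figure D3:**
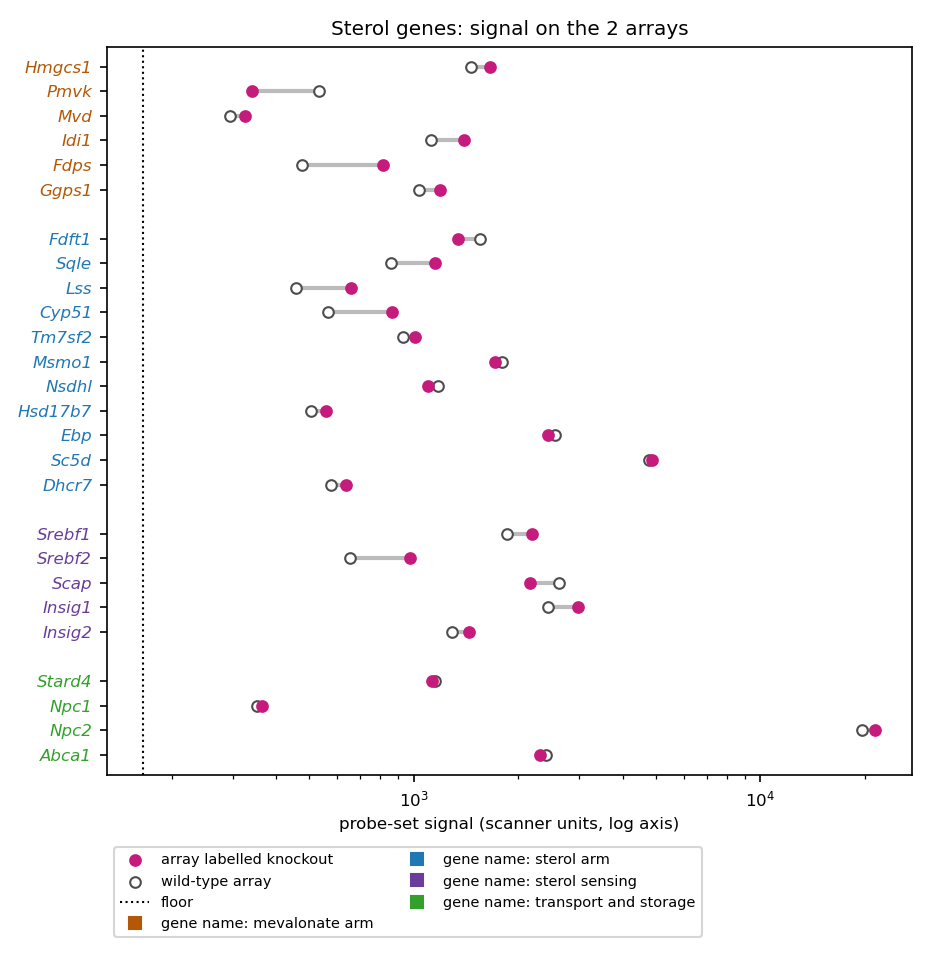
Signal of each measured sterol gene (rows, grouped and coloured by role) on the array labelled knockout (filled) and on the wild-type array (open), joined by a line. The x axis is the probe-set signal on a log scale, and the dotted line the floor of 166. The longest lines to the right are those of Fdps (817 against 475), Cyp51 (867 against 564), Srebf2 and Lss, and the longest to the left that of Pmvk (342 against 534).

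The sterol arm, from squalene to cholesterol, had a median log2 ratio of 0.11 over 11 genes. Above 0 lay 7 of these, or 63.6%, against 47% of all genes. Its 3 highest ratios, with the brightest probe set standing for each gene, were those of Sqle, Lss and Cyp51. Sqle, squalene epoxidase and a rate-limiting step, read 1152 on the array labelled knockout and 862 on the wild-type array in its only probe set, 1.34-fold higher with a log2 ratio of 0.42. Lss, which folds epoxidised squalene into lanosterol, read 657 on the array labelled knockout and 457 on the wild-type array, 1.44-fold higher with a ratio of 0.52, and its other probe set had 0.18. Cyp51, the lanosterol demethylase, read 867 on the array labelled knockout and 564 on the wild-type array, 1.54-fold higher with a ratio of 0.62, and another probe set read 508 on the knockout-labelled array and 293 on the wild-type one, a ratio of 0.79. These 3 enzymes act in sequence, a run picked out after the values were seen. Lss and Cyp51 were higher in both of their probe sets above the floor, though the lower ratio of Lss lay within the SD of a probe set. Those of Cyp51 both exceeded 1.5-fold, and its ratio exceeded that of 96.0% of all genes.

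In the brightest probe sets the later steps differed little, and the step before gave no readable direction. Fdft1, squalene synthase, whose product Sqle uses, read 1339 on the array labelled knockout and 1550 on the wild-type array, a log2 ratio of -0.21, but another probe set read 1604 on the knockout-labelled array and 1101 on the wild-type one, a ratio of 0.54. The sign for Fdft1 was therefore set by the choice of probe set. Tm7sf2, a sterol reductase that follows Cyp51, had a ratio of 0.11, and Msmo1, the methyl sterol oxidase, read 1716 on the array labelled knockout and 1799 on the wild-type array, a ratio of -0.07. Nsdhl, the decarboxylating dehydrogenase that works with Msmo1, had -0.09, with signals of 1101 on the knockout-labelled array and 1171 on the wild-type one. Hsd17b7, the ketoreductase of the same complex, had 0.14 in its brightest probe set and -0.02 and -0.67, a bound because 1 array was below the floor, in the others. Ebp, the sterol isomerase, had -0.07. Sc5d, the desaturase, had 0.03, with signals of 4850 on the knockout-labelled array and 4765 on the wild-type one, with its other probe sets at -0.16 and 0.15. Dhcr7, which carries out a last reduction, read 637 on the array labelled knockout and 577 on the wild-type array, a ratio of 0.14. From Tm7sf2 to Dhcr7 the brightest probe sets ranged from -0.09 to 0.14, all within the SD of a probe set.

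**Figure D4:**
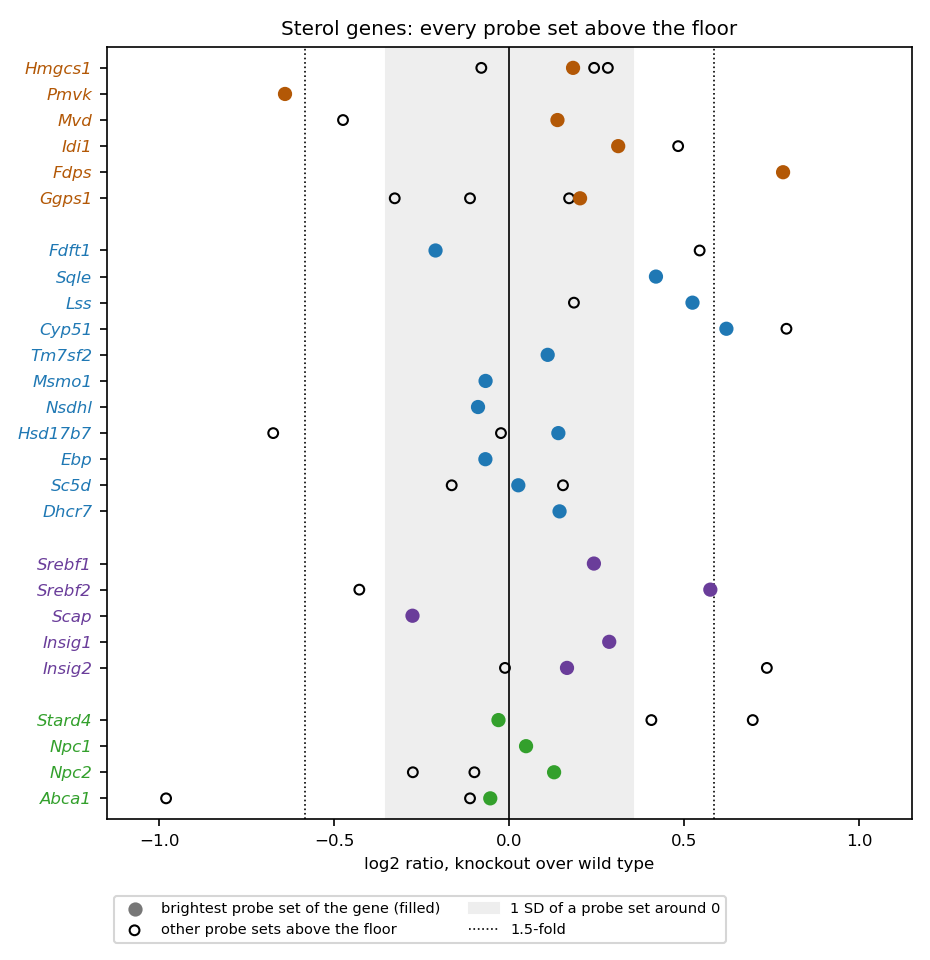
Log2 ratio of the array labelled knockout over the wild-type array (x axis) for every probe set above the floor of the 26 sterol genes (rows, coloured by role). Filled points are the brightest probe set of a gene, open points its others, the grey band 1 SD of a probe set (0.354) around 0 and dotted lines 1.5-fold. Cyp51, Idi1 and Lss have all points right of 0, while those of Srebf2, Fdft1 and Hsd17b7 lie on both sides.

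The sensing proteins had a median log2 ratio of 0.24 over 5 genes. Above 0 lay 4 of these, or 80%, against 47% of all genes. In either direction 0 reached 1.5-fold, against 4.69% of all genes higher and 6.26% lower. Srebf2, whose product drives mainly cholesterol genes, read 975 on the array labelled knockout and 655 on the wild-type array, 1.49-fold higher with a ratio of 0.57, but its other probe set read 618 on the knockout-labelled array and 831 on the wild-type one, a ratio of -0.43. The gap of 1.003 between them was the widest of any member, so that no direction can be read for Srebf2. Srebf1, whose product drives mainly fatty acid genes, read 2198 on the array labelled knockout and 1859 on the wild-type array, a ratio of 0.24. Insig1, itself a classical SREBP target, read 2969 on the array labelled knockout and 2437 on the wild-type array, a ratio of 0.29. Both had 1 probe set and lay within its SD. Insig2, its relative, had 0.16 in its brightest probe set and -0.01 and 0.74 in the others, the last with signals of 1092 on the knockout-labelled array and 656 on the wild-type one. Scap, the escort that Insig proteins retain, was the lowest of the group at 2166 on the array labelled knockout and 2624 on the wild-type array. Its ratio of -0.28, from the only probe set above the floor, also lay within the SD of a probe set.

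Carriers and export proteins had a median log2 ratio of 0.01 over 4 measured genes, 2 above and 2 below 0, against 47% and 53% of all genes. Stard4, a soluble sterol carrier and SREBP target in mouse cells, read 1125 on the array labelled knockout and 1149 on the wild-type array, a ratio of -0.03, while its other probe sets had ratios of 0.41 and 0.70. The first of these read 864 on the knockout-labelled array and 652 on the wild-type one, and the other 370 on the knockout-labelled array and 229 on the wild-type one. The brightest probe set of Stard4 was thus the lowest of its 3. Npc1 and Npc2 pass cholesterol out of the lysosome. Npc1 had 0.05, with signals of 364 on the knockout-labelled array and 352 on the wild-type one. Npc2 read 21451 on the array labelled knockout and 19635 on the wild-type array, a ratio of 0.13, with -0.28 in another probe set and -0.10 in the last, a bound because the array labelled knockout was below the floor. Abca1, which exports cholesterol to lipoproteins and is raised by liver X receptors, read 2316 on the array labelled knockout and 2405 on the wild-type array, a ratio of -0.05. Its other 2 probe sets had -0.98 and -0.11, so that all 3 lay below 0, the only member with several probe sets of which that was true.

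Probe sets of 1 gene often differed in direction, among sterol genes as over the array. Of 62 probe sets of the 27 genes, 50 were above the floor, and 29 of these, or 58%, lay above 0, against 45.2% of the 20538 probe sets with 1 gene symbol above the floor. At 1.5-fold, 5 were higher, 10% against 4.85% of those probe sets, and 3 lower, 6% against 7.62%. In 14 members 2 or more probe sets passed the floor. All of them lay above 0 in 3 genes (Cyp51, Idi1 and Lss), against 18.1% of all such genes of the array, and all below 0 in 1 (Abca1), against 24.5%. In the other 10, or 71.4%, they lay on both sides of 0, against 57.4% of such genes. The median gap between the lowest and highest probe set of a sterol gene was 0.57.

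Genes around the pathway were described from lists of the machinery that the members serve. For comparison, 47% of all genes lay above 0, 4.69% were at least 1.5-fold higher and 6.26% lower. Of 13 measured genes of SREBP cleavage, transport and sterol-regulated degradation, 6 lay above 0 with a median log2 ratio of -0.02, and 0 reached 1.5-fold in either direction. The proteases that free SREBP had ratios of opposite sign, both within the SD of a probe set in their brightest probe sets. Mbtps1, the site-1 protease, read 7433 on the array labelled knockout and 9166 on the wild-type array, a ratio of -0.30 with its other 2 probe sets also below 0, whereas Mbtps2, the site-2 protease, had 0.34 in its only probe set. Sec23a, of the coat that carries SREBP from the endoplasmic reticulum, had 0.22, Rnf139 0.12 with an opposite probe set, and the degradation factors Ubxn8 and Syvn1 had -0.41 and -0.29, which with Mbtps1 were the 3 lowest ratios of the list.

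Among 14 genes that use isoprenoids, 8, or 57.1%, lay above 0, against 47% of all genes. Their median was 0.08, against -0.03 over all genes. Fntb, the beta subunit of farnesyltransferase, read 182 on the array labelled knockout and 292 on the wild-type array, 1.61-fold lower in its only probe set, while Fnta, the alpha subunit, had 0.36 with an opposite probe set. Trit1, which prenylates transfer RNA, had 0.38 and Icmt, which methylates prenylated proteins, 0.34. Rabggta, of the Rab prenyltransferase, had -0.40 and Dhdds, of dolichol synthesis, -0.31 with its other 2 probe sets also below 0. The list thus held values on both sides of 0.

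Of 20 measured genes of sterol carriage, uptake and efflux, 11, or 55%, lay above 0, against 47% of all genes, with a median of 0.07. At least 1.5-fold higher was 1, or 5%, against 4.69% of all genes, and lower was 1, or 5%, against 6.26%. Vldlr, a lipoprotein receptor, was 1.803-fold higher at 503 on the array labelled knockout and 279 on the wild-type array, but its other 2 probe sets above the floor lay below 0, at -0.76 and -0.12. Lrp1, a scavenging receptor, was 1.51-fold lower, with signals of 394 on the knockout-labelled array and 596 on the wild-type one. Osbpl1a, an oxysterol-binding protein, had 0.50 with an opposite probe set, and Abcg1, a cholesterol exporter raised by liver X receptors, 0.36, while the lipoprotein receptor Scarb1 had -0.51 with an opposite probe set and Gramd1b -0.48. The 5 measured sterol hydroxylases and relatives lay between -0.18 (Cyp27a1, with Hsd3b7 at -0.16 and Ch25h at -0.03) and 0.16 (Cyp7b1, followed by Cyp46a1 at 0.10), with a median of -0.03.

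Of 15 measured fatty acid synthesis genes linked to SREBP1, 10 lay above 0, or 66.7%, against 47% of all genes. Their median log2 ratio was 0.15, against 0.14 for the sterol genes and -0.03 over all genes. In either direction 0 reached 1.5-fold, against 4.69% of all genes higher and 6.26% lower. Fasn, fatty acid synthase, read 1710 on the array labelled knockout and 1219 on the wild-type array, a ratio of 0.49, Acss2, an acetyl-CoA synthetase, had 0.34 and Gpam, which starts glycerolipid synthesis, 0.33. Mid1ip1 was the lowest at -0.43, followed by Me1 at -0.31, with an opposite probe set, and Elovl6 at -0.30. The adipocyte markers whose signals summed to 4198 on the knockout-labelled array and 2362 on the wild-type one were read on the same arrays, and their part in these values was not tested.

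**Figure D5:**
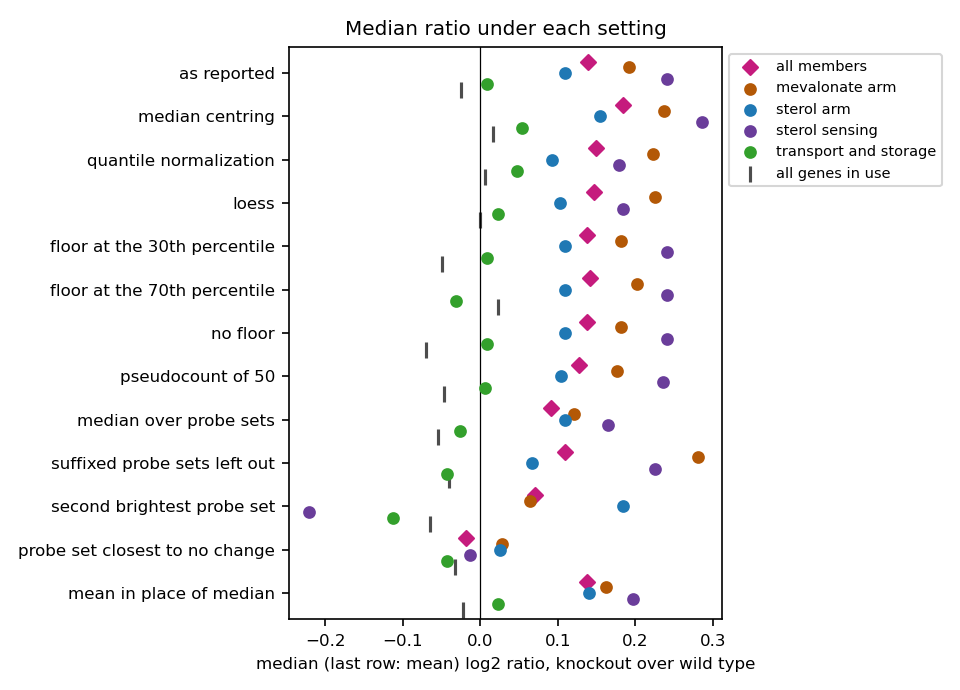
Median log2 ratio of the array labelled knockout over the wild-type array (x axis) for all measured sterol genes (diamonds), for the 4 roles (circles) and for all genes in use (ticks) under each way of processing (rows). The median of the sterol genes stayed right of 0 except when the probe set nearest 0 stood for each gene (-0.02), while that of transport and storage crossed 0 in several rows. That of sterol sensing lay left of 0 with the second brightest probe set (-0.22) and with the probe set nearest 0 (-0.01).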

How the data were processed

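One array per group was read, from the ventral prostate. Per the labels' protocols, 5 ug of total RNA was turned into biotin-labelled cRNA. The deposited values are linear intensity values, 1 per probe set, and GCOS 1.4 is named by the submitters' processing notes. The mean without the highest and lowest 2% of the 45101 probe sets was 500.0 on both arrays, so the submitters' values carry 1 scaling factor per array. Detection calls were not used here, and the number of arrays limits the precision.

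Of 45037 probe sets that are not controls, 34945 had 1 gene symbol in the platform annotation, 932 several and 9160 none, and those with 1 were used. Ratios were computed with Python 3.11.15, pandas 2.3.3 and numpy 2.4.6, with no pseudocount, and loess with statsmodels 0.14.6. The calculations were run on simulated data with planted 2-fold changes and less noise than these arrays showed between probe sets. That run checked the code and does not show how reliable a 1.5-fold difference is here. Promoter sequences are RefSeq's, build GRCm38.p6, and were used for motifs only. The members, the lists and the 1.5-fold threshold were chosen with earlier results of these data known. That threshold was taken because no synthesis gene had passed 2-fold in those results. All 29 members are named, and in each surrounding list up to 3 genes with the highest and 3 with the lowest ratio. The alternatives were 3 scalings, 3 other floors, a pseudocount of 50, 4 other choices of probe set, other fold thresholds and the mean. Suffixed probe sets are those whose names carry _s, _x or _a, which can match several transcripts.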

Additional observations from a re-analysis of the deposited data

How the results depend on the processing

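Of 26 measured genes, 16 kept their direction under every setting tried, 10 above 0 and 6 below, and 12 of these had only 1 probe set above the floor and so could not change with its choice. The 3 scalings kept the direction of 24 genes, the others being Sc5d and Stard4. Fdps, Cyp51 and Pmvk, past 1.5-fold as reported, did not change sign in any setting that measured them. Srebf2 passed 1.5-fold under the 3 scalings (0.59 to 0.62) and had -0.43 with its other probe set. The median of the sterol genes was -0.0184 when the probe set nearest 0 stood for each gene, where that of all genes was -0.03. It was 0.42 over the 4 genes whose probe sets all agreed, a setting chosen after seeing the data. Of these 4, 3 lay above 0, against 42.5% of all genes whose probe sets agreed. Under that choice of the nearest probe set the mevalonate arm had 0.0285, the sensing genes -0.0127 and the carriers -0.0430. With the second brightest probe set, available for 14 genes, 7 genes lay above 0, against 43.2% of all genes with such a probe set. The sensing genes then had -0.22 and the carriers -0.11. The carriers also had -0.0313 with the floor at the 70th percentile, -0.0263 with the median over probe sets and -0.0430 without suffixed probe sets.

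The count of genes at least 1.5-fold higher was 1 with a pseudocount of 50 and with the second brightest probe set, and it was 0 at 2-fold and 5 past a log2 ratio of 0.32. The cause of these differences was not tested. The count of lower genes, 1 as reported, was 0 under quantile normalization, loess, the floor at the 70th percentile, a pseudocount of 50, the second brightest probe set, suffixed probe sets left out and a threshold of 2-fold. Pmvk, that gene, had -0.55 under both of the first, -0.36 with the higher floor and -0.57 with the pseudocount. It is of the suffixed kind and has no second probe set. Over all genes, the 1.5-fold counts were 229 higher and 444 lower with the second brightest probe set, 256 and 536 with the nearest to 0, 322 and 627 with the median over probe sets, 365 and 241 with the higher floor, 939 and 1796 with the lower one (30th percentile), 997 and 1825 with the pseudocount, and 1932 and 3470 with no floor. No paired analysis was possible because each group has 1 sample. Leaving out a replicate was not possible for the same reason.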

Other observations

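Some probe sets outside the gene-level values differed from those used, and these genes were chosen after their values were seen. The second probe set of Acss2 above the floor had a log2 ratio of 1.10, against 0.34 in its brightest. Pltp, a phospholipid transfer protein and liver X receptor target, had 0.21 in its brightest probe set and -0.93 in its other. Dhdds had -0.88 in 1 of its 3 probe sets. Fads1, Fads2 and Me1 had 0.24, 0.43 and 0.60 in their other probe sets, against -0.13, -0.09 and -0.31 in their brightest.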
